A study of Mus musculus with 7 samples.

Results

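Oxidative phosphorylation couples electron transfer through 4 respiratory complexes to ATP synthesis by complex V, and its proteins are encoded partly by mitochondrial DNA and partly by the nucleus. The protein-coding genes of this machinery, the mt- genes and the nuclear Nduf, Sdh, Uqcr, Cyc1, Cox4 to Cox8 and Atp5 genes, were taken by their names from a table of 47643 genes. This gave 106 members, 13 encoded by mitochondrial DNA and 93 by the nucleus. Expression was given as TPM, in which reads are divided by gene length and scaled to a fixed sum per library. The 100 members averaging 1 TPM or more over the 7 libraries were tested, among them every mt- gene and 87 nuclear genes. The other 6 members were Cox4i2, Cox6a2, Cox7b2, Cox8b, Cox8c and Ndufa4l2. A few genes caught by name are assembly factors or associated proteins and not subunits, such as the Ndufaf genes, Atp5sl, Atp5s and the supercomplex factor Cox7a2l.

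The libraries came from lung alveolar macrophages of mice, sorted as CD11c+, F480+ and SiglecF+ per the labels. Lyz2cre libraries (n = 3) carried the alleles written as cSiah1a/2f/f with Cre under Lyz2, which is active in macrophages, monocytes and neutrophils. The CD11ccre library (n = 1) carried the same alleles with Cre under CD11c, which is active in alveolar macrophages and dendritic cells. WT libraries (n = 3) were labelled only as wild type, and whether they carried a Cre is not given. Siah1a and Siah2 encode ubiquitin ligases. Age, sex and whether libraries came from separate or pooled animals are not in the labels, so the p-values below reflect spread among the libraries, which may be technical.

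The mitochondrial genome encodes core subunits of complexes I, III, IV and V and none of complex II. Its genes lie close together, are transcribed as long precursors by a dedicated polymerase and are cut into shorter messages, most of which receive poly(A) tails. The nuclear members are transcribed from separate promoters and their products are imported, so every complex except II is assembled from both genomes. Alveolar macrophages rely on mitochondrial oxidation more than many other macrophages. The libraries were made from poly(A)-selected RNA, so the values below mainly cover polyadenylated transcripts.

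The targeted genes matched the labels. Siah1a had 0, 0 and 0.05 TPM in Lyz2cre and 0 in CD11ccre, against 16.6, 6.72 and 13.4 in WT. Siah2 had 1.95, 1.45 and 1.5 TPM in Lyz2cre and 1.21 in CD11ccre, against 13.6, 12.7 and 17.3 in WT (exact two-sided permutation test, Lyz2cre against WT, p = 0.1 for each gene, the smallest that 3 against 3 libraries allow). Sequencing depth is unknown because TPM sums to 1000000 in every library, and between 10883 and 11518 genes per library reached 1 TPM. All 14 alveolar macrophage markers checked were above the mean of 1 TPM, and their summed level was 63902 to 79032 TPM in Lyz2cre and 71609 in CD11ccre, against 33468 to 36442 in WT. Most of this sum was Chil3, at a mean of 60484 TPM in Lyz2cre and 21685 in WT. Ear2, the next highest in both groups, averaged 2697 TPM in Lyz2cre and 6504 in WT, so the sum follows Chil3 and not each marker. Of the list 5 genes were called higher in Lyz2cre and 3 lower, Ear1, Ear2 and the sort marker Siglecf (84.5 TPM ± 20.8 in Lyz2cre and 231 TPM ± 23.3 in WT). Summed neutrophil markers (5 of 10 above the mean of 1 TPM) gave 109 to 142 TPM in Lyz2cre and 106 in CD11ccre against 45.02 to 94.3 in WT, with Ly6g, Elane and Camp at 0 in every library. S100a8 made up most of this sum in Lyz2cre and CD11ccre, and averaged 101 TPM ± 23.5 in Lyz2cre and 24.9 TPM ± 8.70 in WT. In contrast, Csf3r was called lower in Lyz2cre and S100a9 averaged 4.40 TPM in Lyz2cre and 19.8 in WT. Lung epithelial markers (10 of 14) summed to 193 to 391 TPM in Lyz2cre and 287 in CD11ccre against 260.0 to 351 in WT. Scgb1a1 was the highest of them, and the members did not move together. Epcam was called lower, at 1.58 TPM ± 0.789 in Lyz2cre and 35.9 TPM ± 9.74 in WT. At an unadjusted p under 0.05 limma gave 3 of the 10 higher and 3 lower in Lyz2cre, where 24.6% of all tested genes passed. Stromal, endothelial and blood markers (8 of 13) summed to 104 to 145 TPM in Lyz2cre and 90.5 in CD11ccre against 53.3 to 79.3 in WT. Vwf made up most of this sum in Lyz2cre and CD11ccre and was the only gene of the list called in Lyz2cre. It had 101 TPM ± 22.0 in Lyz2cre and 71.7 in CD11ccre, against 43.3 TPM ± 15.1 in WT. The endothelial genes Pecam1, Cdh5 and Kdr had at most 0.9 TPM in any library. Dendritic cell markers (3 of 10) summed to 5.88 to 11.04, 6.20 and 14.2 to 32.5 TPM in Lyz2cre, CD11ccre and WT, and lymphocyte markers (2 of 14) to 1.18 to 3.62, 3.18 and 6.78 to 23.4 TPM in the same groups. The macrophage sum, set mostly by Chil3, and the neutrophil and stromal sums were higher in every Lyz2cre library than in any WT library. The dendritic and lymphocyte sums were lower in the same comparison, and the epithelial sum overlapped. Their part in the results below was not tested. In bulk RNA fewer cells of a type and less RNA per cell cannot be told apart.

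Transcripts of the mitochondrial genome were lower in Lyz2cre than in WT, while most nuclear transcripts of the same complexes differed less. Of the 13 mt- genes 10 fell and 0 rose, where 524 of 11397 tested genes fell (4.6%) and 247 rose (2.17%), 6.76% in either direction (limma on log2(TPM + 1), adjusted p under 0.05). Their median log2 difference was -1.29, with a range of -2.27 to -0.98, against a median of -0.16 over all tested genes. In 12 of the 13 every Lyz2cre library lay below every WT library, which held for 23.3% of all tested genes. The 13 mt- genes made up 3.64% ± 0.979 of all TPM in Lyz2cre (SD, n = 3) and 4.07% in CD11ccre, against 8.22% ± 0.762 in WT (SD, n = 3). All 13 differences stayed negative in each alternative run, and the same 10 genes were called with median-of-ratios scaling, with scaling to nuclear protein-coding genes and with scaling without the abundant Ftl1, Fth1, Chil3 and Lyz2. The calls themselves depended on the low-value filter and on the libraries. With no filter 0 of the 13 were past the threshold, in a fit over all genes above 0 in any library. Without WT replicates 1, 2 and 3 in turn 5, 0 and 1 of the 13 remained past the threshold, and without Lyz2cre replicates 1, 2 and 3 in turn 10, 7 and 3 did.

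Complex I, the NADH dehydrogenase, takes 7 membrane-embedded core subunits from mitochondrial DNA, which form its proton-pumping arm. mt-Nd4 had 2808, 1447 and 2555 TPM in Lyz2cre and 2719 in CD11ccre, against 5294, 6244 and 5999 in WT. mt-Nd5 had 1202, 678 and 1019 TPM in Lyz2cre and 989.7 in CD11ccre, against 2057, 2808 and 2579 in WT. The highest Lyz2cre value of each gene lay well under its lowest WT value, and both genes fell, mt-Nd4 by 1.42 (SE 0.24, adjusted p = 0.0187) and mt-Nd5 by 1.39 (SE 0.22, adjusted p = 0.0149) on the log2(TPM + 1) scale. mt-Nd1 had 3252, 1846 and 2744 TPM in Lyz2cre and 3013 in CD11ccre, against 5153, 6015 and 5703 in WT. mt-Nd2 had 2168, 1112 and 1795 TPM in Lyz2cre and 2107 in CD11ccre, against 3576, 4244 and 4321 in WT. Both were separated in the same way, with log2 differences of -1.14 for mt-Nd1 (adjusted p = 0.0206) and -1.31 for mt-Nd2 (adjusted p = 0.0223). mt-Nd6 is the only protein gene on the light strand and overlaps mt-Nd5 by 14 bases in antisense. It had 1730.4, 1092 and 1657 TPM in Lyz2cre and 1536 in CD11ccre, against 3041, 3718 and 3692 in WT, a log2 difference of -1.25 (adjusted p = 0.0126). The strand setting of the authors' quantification is not given in the sources used here. Whether reads over that overlap were assigned by strand is therefore unknown. mt-Nd4l, which overlaps mt-Nd4 by 7 bases, had 431, 847 and 1164 TPM in Lyz2cre and 675 in CD11ccre, against 2273, 2871 and 2925 in WT, a log2 difference of -1.83 (adjusted p = 0.0234). mt-Nd3 had 1328, 424 and 1453 TPM in Lyz2cre and 1311 in CD11ccre, against 2122, 1984 and 2829 in WT. Its groups did not overlap either, but the low Lyz2cre replicate 2 widened its error (log2 difference -1.29, SE 0.44, adjusted p = 0.132). In that library part of the TPM stood on a nuclear copy, as given below.

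Cytochrome b, the only mitochondrially encoded subunit of complex III, carries the quinone-binding sites of the cytochrome bc1 complex. mt-Cytb had 3627, 2208 and 3177 TPM in Lyz2cre and 3334 in CD11ccre, against 6974, 8016 and 7825 in WT, and fell by 1.37 on the log2 scale (SE 0.18, adjusted p = 0.00888). It was past the threshold in 15 of 17 alternatives, more than any other mt- gene. In complex IV, cytochrome c oxidase, mt-Co1 and mt-Co2 hold the haem and copper centres. mt-Co1 had 9657, 6319 and 7893 TPM in Lyz2cre and 9015 in CD11ccre, against 13748, 17476 and 16286 in WT (log2 difference -1.01, SE 0.17, adjusted p = 0.0184). mt-Co2 had 9164, 6552 and 7628 TPM in Lyz2cre and 9002 in CD11ccre, against 13549.6, 16030.1 and 16069 in WT (log2 difference -0.98, SE 0.14, adjusted p = 0.0115). Both were separated between the groups, and their differences were smaller than those of the complex I genes above. mt-Co3, the third core subunit, behaved differently from its neighbours. It had 1729.6, 99.9 and 613 TPM in Lyz2cre and 410.0 in CD11ccre, against 137, 3738 and 2520.5 in WT, so the groups overlapped and the spread within each group was wide (log2 difference -1.20, adjusted p = 0.653).

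In complex V, the ATP synthase, mt-Atp6 forms the proton channel with the ring of c subunits and mt-Atp8 is a small partner in the membrane part. mt-Atp8 had 3579.6, 2618 and 3105 TPM in Lyz2cre and 3497 in CD11ccre, against 5261, 6449 and 7358 in WT (log2 difference -1.03, SE 0.16, adjusted p = 0.0140). mt-Atp6 had 3952, 326 and 4196 TPM in Lyz2cre and 3140.2 in CD11ccre, against 10258, 6766 and 8801 in WT (log2 difference -2.27, SE 0.91, adjusted p = 0.178). The groups were separated for both genes, but Lyz2cre replicate 2 was more than 10 times below the other Lyz2cre libraries for mt-Atp6. The 2 genes share 43 bases, shown in capitals in the junction below (chrM:7911-7985, plus strand, mm10, from GENCODE M21 transcripts). The shared bases alone do not tell the genes apart, but the stretch is shorter than a read of 75 bases.
mt-Atp8/mt-Atp6 junction: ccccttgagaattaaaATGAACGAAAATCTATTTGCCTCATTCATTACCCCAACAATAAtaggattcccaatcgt

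**Figure D1:**
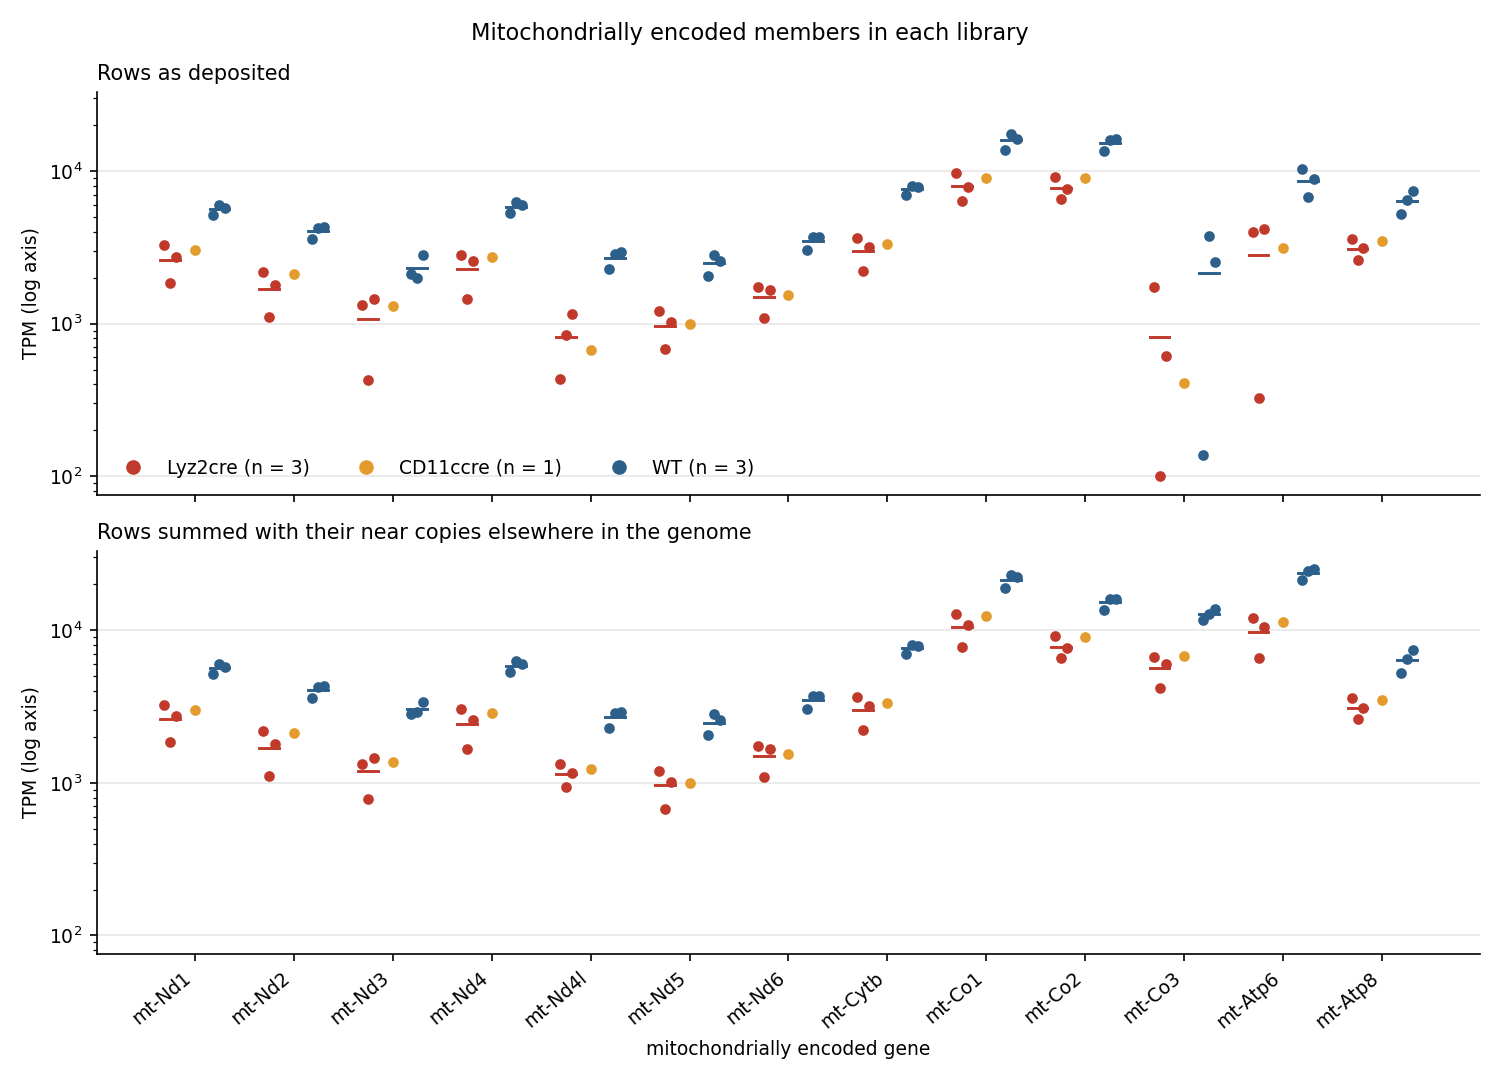
TPM (log axis) of the 13 mitochondrially encoded genes in Lyz2cre, CD11ccre and WT libraries, with rows as deposited above and rows summed with their near copies below. Points are libraries and short lines are means of the groups with n = 3. As deposited, mt-Co3 spread from 99.9 to 3738 TPM over all libraries, and after summing every gene had all Lyz2cre libraries below all WT libraries.

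The genes with the widest spread have near-identical copies in the nucleus. A stretch of minus-strand chromosome 1 (chr1:24611535-24616197, mm10) holds annotated pseudogenes of 7 mt- genes. Gm10925 shares 678 bases with mt-Atp6, Gm28437 shares 783 with mt-Co3, Gm28661 shares 681 with mt-Co2, Gm28439 shares 876 with mt-Nd4 and Gm10222 shares 294 with mt-Nd4l, each with 0 substitutions. Reads were single-ended and 75 bases long per the labels, so a read inside one of these stretches fits both loci equally. The chromosome 1 copies of mt-Co1 and mt-Nd3 can be told apart near one end. A further copy of mt-Co1 on chromosome 2, Gm13340, is less alike (97.6% over 1545 bases) and held at most 2.32 TPM. Gm29216 differs from mt-Co1 at 6 of 492 positions, T1056A, C1057T, A1059G, A1060G, C1062A and A1066T, and Gm28438 differs from mt-Nd3 at 1 of 345, T3C, counted from the first base of the mitochondrial transcript. The windows that hold these positions are shown with the differing bases in capitals (GENCODE M21 transcripts, mm10). They are chrM:6381-6440 and chrM:9459-9518 on the plus strand, and chr1:24616138-24616197 and chr1:24613060-24613119 on the minus strand for Gm29216 and Gm28438.
mt-Co1: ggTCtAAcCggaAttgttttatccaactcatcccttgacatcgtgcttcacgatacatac
Gm29216: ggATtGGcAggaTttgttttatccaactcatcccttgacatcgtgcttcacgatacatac
mt-Nd3: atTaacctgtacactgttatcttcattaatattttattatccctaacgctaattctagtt
Gm28438: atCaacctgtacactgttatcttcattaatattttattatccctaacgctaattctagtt

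How TPM was divided between a gene and its copy varied from library to library. Gm10925 held 67.0%, 95% and 60.1% of the summed TPM of mt-Atp6 and its copy in Lyz2cre and 72.1% in CD11ccre, against 51.6%, 72.4% and 64.7% in WT. Gm28437 held 74.1%, 97.6% and 89.8% for mt-Co3 in Lyz2cre and 94.0% in CD11ccre, against 98.8%, 70.8% and 81.8% in WT. The lowest mt-Atp6 value and the lowest mt-Co3 values of each group were thus the libraries in which nearly all of the sum stood on the copy. For mt-Nd4 it was separated between the groups, with Gm28439 at 8.32%, 13.3% and 0.831% in Lyz2cre and 5.23% in CD11ccre, against 0% in all WT libraries. For mt-Nd4l the groups overlapped at 0%, with Gm10222 at 67.5%, 9.38% and 0% in Lyz2cre and 45.1% in CD11ccre, against 0%, 0% and 0.00205% in WT. For mt-Co1 it was similar in all libraries, with Gm29216 between 18.1% and 27.3%. For mt-Nd3, Gm28438 held 0%, 45.4% and 0.000688% in Lyz2cre and 4.58% in CD11ccre. In WT it held 25.3%, 31.7% and 15.9%.

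**Figure D2:**
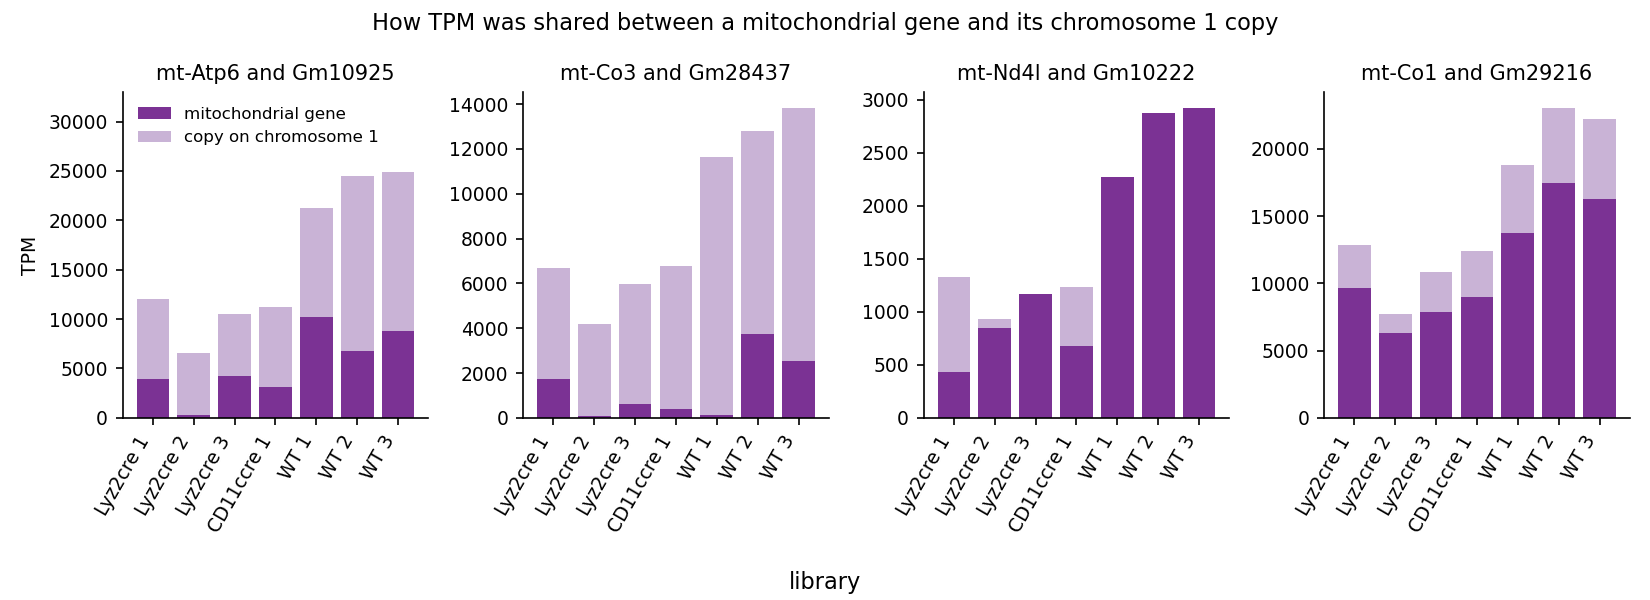
TPM of 4 mitochondrial genes (dark) stacked with their copies on chromosome 1 (light) in each Lyz2cre, CD11ccre and WT library. The dark parts varied within a group, as in mt-Co3 with 137, 3738 and 2520.5 TPM in WT, while the full bars were close within WT.

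Each member was therefore also summed with its near copies, a setting chosen after the data were seen. These sums add rows of unequal length where a copy is truncated, so they are not the TPM of either row. In WT the spread between libraries (SD as a percent of the mean) was 8.58% for summed mt-Co3, against 85.9% as deposited, and 8.68% for summed mt-Atp6, against 20.4%. Summed mt-Co3 was 6684, 4196 and 5989 in Lyz2cre and 6783 in CD11ccre, against 11659, 12822 and 13851 in WT (log2 difference -1.21, SE 0.17, adjusted p = 0.0108). Summed mt-Atp6 was 11985, 6548 and 10507 in Lyz2cre and 11256 in CD11ccre, against 21209.6, 24518 and 24948 in WT (log2 difference -1.33, SE 0.22, adjusted p = 0.0155). Both genes were separated between Lyz2cre and WT and past the threshold as sums. Over all mt- genes 13 of 13 fell in Lyz2cre, with log2 differences of -1.40 (mt-Nd3) to -0.97 (mt-Co2) and adjusted p of 0.00735 to 0.0210, where 4.67% of tested genes fell. WT means were 1.95 (mt-Co2) to 2.57 (mt-Nd5) times the Lyz2cre means, a narrower range than the 1.96 to 3.30 of the deposited rows. Lyz2cre replicate 2 was the lowest of the 7 libraries for 13 of 13 summed genes, and WT replicate 1 was the lowest WT library for 13 of 13.

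As deposited, mt-Co1 and mt-Co2 were the highest mitochondrial genes in each group. With near copies included, mt-Atp6 took the largest share in every WT library, and mt-Co1 in every Lyz2cre library and in CD11ccre. As shares of the summed mitochondrial TPM, copies included, mt-Co1 took 20.4% ± 0.271 in Lyz2cre and 20.8% in CD11ccre, against 18.7% ± 0.480 in WT (SD, n = 3 each). mt-Co2 took 15.5% ± 1.60 in Lyz2cre and 15.2% in CD11ccre, against 13.3% ± 0.0492 in WT. For these the Lyz2cre libraries all lay above the WT libraries. mt-Atp6 took 18.7% ± 1.28 in Lyz2cre and 19.0% in CD11ccre, against 20.7% ± 0.188 in WT, and mt-Cytb took 5.86% ± 0.0492 in Lyz2cre and 5.62% in CD11ccre, against 6.68% ± 0.192 in WT. These 2, with mt-Nd2, mt-Nd4 and mt-Nd5, had all Lyz2cre shares below all WT shares, while the other 6 genes overlapped. Shares sum to a fixed total and were not tested.

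The nuclear members differed less between the groups. Their summed TPM was 15941, 17919 and 15996 in Lyz2cre and 16202 in CD11ccre, against 19962, 19892 and 19508 in WT, with WT at 1.19 times the Lyz2cre mean. For the mt- genes WT was at 2.26 times the Lyz2cre mean. The sum of the mt- genes over that of the nuclear members was 2.80, 1.43 and 2.44 in Lyz2cre and 2.52 in CD11ccre, against 3.68, 4.34 and 4.45 in WT. No Lyz2cre library reached the lowest WT ratio, and the Lyz2cre mean was 0.534 of the WT mean, or 0.630 without the low Lyz2cre replicate 2. A ratio over chosen members has no test here.

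The lower ratio was found in each complex that is built from both genomes. For complex I it was 3.14, 1.59 and 2.89 in Lyz2cre and 2.95 in CD11ccre, against 4.40, 5.44 and 5.67 in WT. For complex III it was 2.04, 1.16 and 1.82 in Lyz2cre and 1.90 in CD11ccre, against 3.19, 3.55 and 3.94 in WT. For complex V it was 1.63, 0.561 and 1.56 in Lyz2cre and 1.36 in CD11ccre, against 2.75, 2.29 and 2.83 in WT. In each of these every Lyz2cre library lay below every WT library. Complex IV came closest to overlap, with 4.25, 2.38 and 3.42 in Lyz2cre and 3.81 in CD11ccre, against 4.49, 6.11 and 5.60 in WT. With near copies summed, complex IV gave 5.38, 3.10 and 4.61 in Lyz2cre and 5.41 in CD11ccre, against 6.64, 7.56 and 7.59 in WT.

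**Figure D3:**
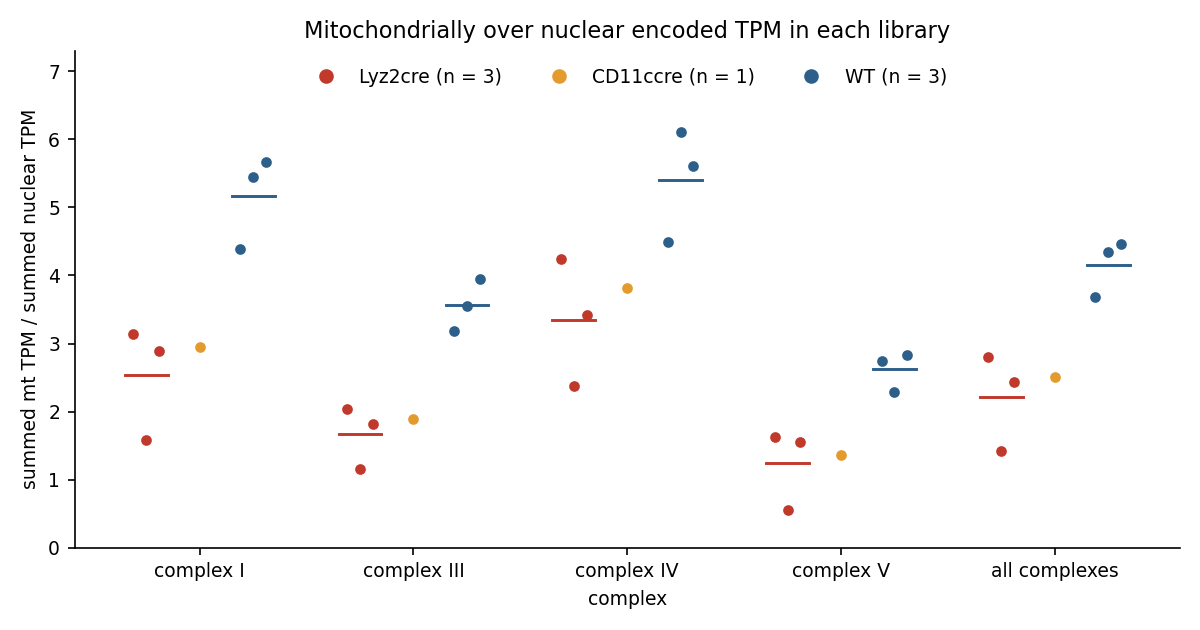
Summed TPM of mitochondrially encoded members over summed TPM of nuclear members, by complex and over all complexes, in Lyz2cre, CD11ccre and WT libraries, as deposited. Points are libraries and lines are means of the groups with n = 3. Every Lyz2cre point lay below every WT point of its complex, closest in complex IV (4.25 against 4.49).

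When every library was rescaled so that the nuclear members summed to the same value, the mt- genes remained lower in Lyz2cre but fewer passed. mt-Cytb (log2 difference -1.11, SE 0.22, adjusted p = 0.0312) and mt-Nd4l (-1.57, SE 0.32, adjusted p = 0.0381) fell, and 11 of 13 were not called, where 1.06% of all tested genes fell, 3.1% rose and 4.16% did either on this scale. For mt-Nd4l much of the sum stood on its copy in Lyz2cre replicate 1, as given above. At an unadjusted p under 0.05 there were 10 of 13, against 19.4% of all tested genes. With near copies summed 5 of 13 were called on this scale, against 1.09% of all tested genes. In CD11ccre 0 of 13 mt- genes were called on it by limma, with differences of -1.70 to -0.46, where 0.526% of all tested genes fell, 0.991% rose and 1.52% did either. At an unadjusted p under 0.05 there were 4, against 14.4% of all tested genes, and limma without the trend called 0.

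**Figure D4:**
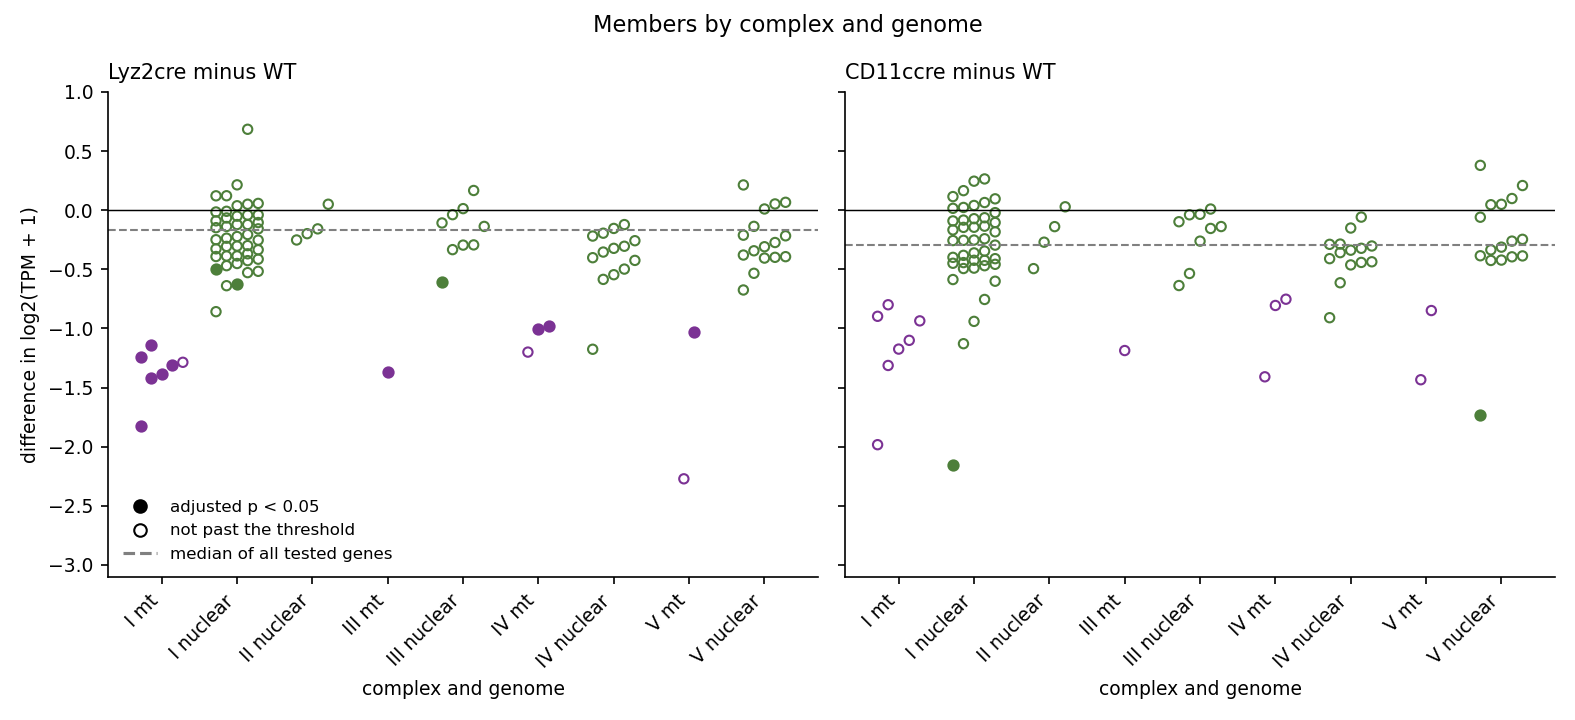
Differences in log2(TPM + 1) of the 100 tested members by complex and genome, for Lyz2cre minus WT (left) and CD11ccre minus WT (right). Filled points have an adjusted p under 0.05, and the dashed line is the median of all tested genes (-0.16 on the left, -0.29 on the right). Mitochondrially encoded members lay between -2.27 and -0.98 on the left, and most nuclear members lay closer to the dashed line.

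Of the 87 nuclear members tested 3 fell and 0 rose in Lyz2cre, where 4.6% of all tested genes fell and 2.17% rose. At an unadjusted p under 0.05, limma gave 27 lower and 1 higher, 32.2% of the nuclear members, where 24.6% of all tested genes passed. The median log2 difference was -0.25, lower than the -0.16 of all genes. Of the 87 nuclear members 30 were separated below WT, where 2658 of 11397 tested genes were (23.3%), and 1 above, where 849 were (7.45%). Scaling sets much of this: the nuclear median was -0.07 with median-of-ratios scaling, where the median of all genes was 0.00, -0.09 with scaling without the 4 abundant genes and -0.37 with scaling to nuclear protein-coding genes. Over all genes the split of calls was 247 higher and 524 lower as deposited, and 340 higher and 205 lower with median-of-ratios scaling. The 3 nuclear calls ended with median-of-ratios scaling and with scaling without the abundant genes, while 20 nuclear members were called lower with scaling to nuclear protein-coding genes, where 10.7% of all tested genes were. None of the 87 was called lower by limma when replicate 1 or 3 of Lyz2cre, or replicate 1 or 2 of WT, was left out, nor without the trend, and 1 was without Lyz2cre replicate 2.

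Among the 44 nuclear genes of complex I, 2 fell and the median was -0.23. Among the accessory subunits Ndufb10, a part of the membrane arm, fell, with 190.2, 176 and 190.0 TPM in Lyz2cre and 198 in CD11ccre, against 275, 274 and 240.4 in WT (log2 difference -0.50, SE 0.10, adjusted p = 0.0354). Ndufa3, the accessory subunit with the highest level, had 202, 319 and 281 TPM in Lyz2cre and 255 in CD11ccre, against 351, 313 and 402 in WT, and its groups overlapped. Of the 8 assembly factors 0 were called and 1 had an unadjusted p under 0.05, with WT means of 7.34 TPM (Ndufaf6) to 23.7 TPM (Ndufaf2).

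Ndufb2, an accessory subunit of the membrane arm, had the largest of 7 positive differences among the 44 nuclear genes of complex I and is named after its values were seen. It had 83.0, 105 and 74.8 TPM in Lyz2cre and 64.5 in CD11ccre, against 54.9, 45.9 and 60.7 in WT, and was the only nuclear member with all Lyz2cre libraries above all WT libraries. Its log2 difference was 0.68 (SE 0.17, adjusted p = 0.0553), short of the threshold. It was called higher with median-of-ratios scaling, with scaling without the 4 abundant genes, when tested genes had to average 5 TPM, and relative to the nuclear members (log2 difference 0.93, SE 0.16, adjusted p = 0.0180).

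In complex II, succinate dehydrogenase, which has no mitochondrially encoded subunit, 0 of 4 genes were called by limma with or without the trend. Their median log2 difference was -0.18, with 0 at an unadjusted p under 0.05. Sdhd, a membrane anchor and the highest of them, had 186, 153 and 163 TPM in Lyz2cre and 159 in CD11ccre, against 188, 189 and 198 in WT, with a gap between groups of less than 2 TPM. The catalytic Sdha and Sdhb and the other anchor Sdhc overlapped between the groups.

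In complex III 1 of 9 nuclear genes fell. This was Uqcrh, the hinge protein at the docking site of cytochrome c and the most abundant nuclear member of the complex. It had 328, 378 and 337 TPM in Lyz2cre and 340.2 in CD11ccre, against 547, 551 and 493 in WT (log2 difference -0.61, SE 0.10, adjusted p = 0.0187). The groups were wide apart, and this was the smallest p of any nuclear member on the deposited scale. Cyc1, the cytochrome c1 haem protein, had means of 84.3 TPM ± 1.15 in Lyz2cre and 83.8 TPM ± 8.59 in WT (SD, n = 3 each), while the Rieske protein Uqcrfs1 had 128 TPM ± 2.35 in Lyz2cre and 162 TPM ± 12.8 in WT without a call (adjusted p = 0.104).

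**Figure D5:**
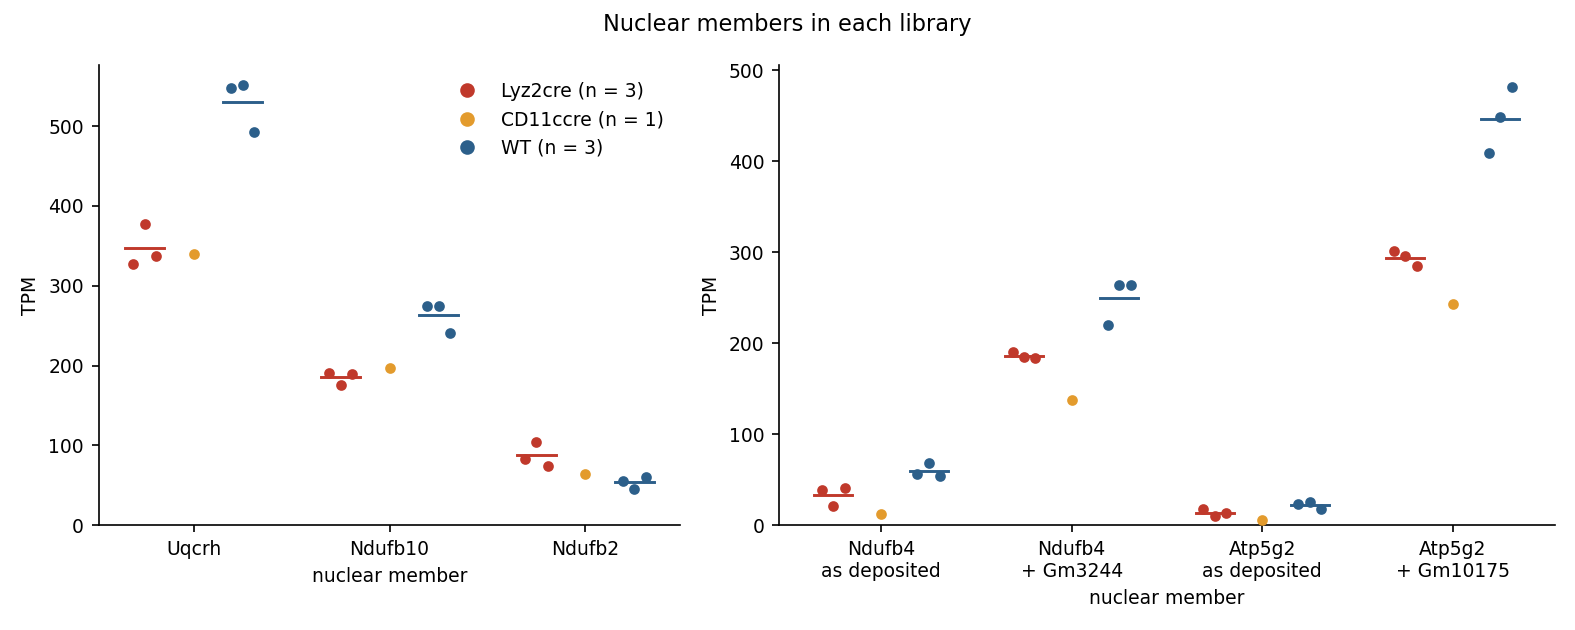
TPM of nuclear members in Lyz2cre, CD11ccre and WT libraries, with Uqcrh, Ndufb10 and Ndufb2 on the left and Ndufb4 and Atp5g2 on the right, as deposited and summed with 1 near copy each. Points are libraries and lines are means of the groups with n = 3. Ndufb2 was the gene with Lyz2cre above WT (83.0, 105 and 74.8 against 54.9, 45.9 and 60.7 TPM).

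Complex IV had 14 of its 20 nuclear genes tested, with 0 called by limma and 6 at an unadjusted p under 0.05, where 24.6% of all tested genes passed. All 14 differences of this complex were negative on the deposited scale, with a median of -0.34 against -0.16 over all tested genes. Over the alternative runs the highest difference was 0.06 for Cox4i1 and 0.03 for Cox7a2, so not every sign held. Several of its subunits exist as tissue isoforms, and the widely expressed isoforms had the higher levels here. Cox4i1, the highest nuclear member of all, had 962, 1057 and 905 TPM in Lyz2cre and 858 in CD11ccre, against 1191, 1144 and 869 in WT, while Cox4i2, an isoform known from lung and hypoxia, was listed at 0 in every library except WT replicate 3 (0.48 TPM). Cox5a had 409, 475 and 471 TPM in Lyz2cre and 462 in CD11ccre, against 588, 604 and 726 in WT, separated but short of the threshold (log2 difference -0.50, adjusted p = 0.0526), and Cox5b overlapped. Cox6a1 averaged 348 TPM ± 60.1 in Lyz2cre and 432 TPM ± 36.1 in WT (SD, n = 3 each), against at most 1.00 TPM for the muscle isoform Cox6a2 in any library. Cox6b1 averaged 694 TPM ± 94.6 in Lyz2cre and 804 TPM ± 54.0 in WT, and its testis isoform Cox6b2 51.1 TPM ± 7.03 and 82.2 TPM ± 39.0003 in the same groups. Among the Cox7a forms the muscle isoform Cox7a1 was low, at 6.89 TPM ± 5.80 in Lyz2cre and 14.8 TPM ± 6.22 in WT, with Cox7a2 at 189 TPM ± 10.9 and 211 TPM ± 24.004 and Cox7a2l at 334 TPM ± 7.52 and 384 TPM ± 42.8 in the same groups. Cox7b and Cox8a were separated below WT without a call (adjusted p = 0.0703 and 0.0983), and Cox7b2, Cox8b and Cox8c were listed at 0 in all 7 libraries. Ndufa4, now placed in complex IV, averaged 399.8 TPM ± 49.0 in Lyz2cre and 492 TPM ± 33.6 in WT, and its hypoxia-induced relative Ndufa4l2 was listed at 0 except in WT replicate 3 (0.24 TPM).

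In complex V 0 of the 16 nuclear genes were called in Lyz2cre by limma, but 7 had an unadjusted p under 0.05, where 24.6% of all tested genes did. Their median was -0.29, against -0.16 over all tested genes. Atp5b, the catalytic beta subunit, had 714, 827 and 745 TPM in Lyz2cre and 794 in CD11ccre, against 976, 989.5 and 1043 in WT, a separation that stopped short of the threshold (log2 difference -0.40, SE 0.10, adjusted p = 0.0518). The c ring is encoded by 3 genes whose mature proteins are identical. Atp5g3, the highest of them, had 545, 630.5 and 565 TPM in Lyz2cre and 561 in CD11ccre, against 746, 803 and 714 in WT (adjusted p = 0.0681), and Atp5g1 had 137, 141 and 170.1 TPM in Lyz2cre and 161 in CD11ccre, against 199.6, 249 and 201 in WT (adjusted p = 0.0640). Both were separated without a call. Atp5g1 has its own near copy, Gm10039, and with it summed the groups overlapped (adjusted p = 0.364). Atp5g2 stood at 17.9, 10.1 and 13.1 TPM in Lyz2cre and 5.89 in CD11ccre, against 23.1, 26.0 and 17.5 in WT, but Gm10175, identical over 645 bases, held 94.1% to 97.6% of the sum in every library. Summed, Atp5g2 was 301, 296 and 285 in Lyz2cre and 244 in CD11ccre, against 409, 449 and 482 in WT, and it was called lower (log2 difference -0.60, SE 0.10, adjusted p = 0.0172).

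The single CD11ccre library resembled Lyz2cre in direction but with less precision, since its spread was assumed to be that of the other groups. It shares the WT libraries with the Lyz2cre comparison, so the comparisons are not independent. All 13 mt- differences from WT were negative, with a median of -1.10 and a range of -1.98 (mt-Nd4l) to -0.75 (mt-Co2), against -0.29 over all tested genes. None passed limma's threshold with or without the mean-variance trend, 10 had an unadjusted p under 0.05 where 22.3% of all tested genes did, and 12 of 13 lay below every WT library, where 50.5% of all tested genes did. The smallest adjusted p was that of mt-Cytb (log2 difference -1.19, SE 0.26, adjusted p = 0.0585). With near copies summed mt-Nd4l was called (log2 difference -1.12, SE 0.22, adjusted p = 0.0474).

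Of the nuclear members 2 fell in CD11ccre and 0 rose, at an unadjusted p under 0.05 21 were lower and 0 higher (24.1% of them, against 22.3% of all tested genes), and at the adjusted threshold 1.99% of all tested genes fell, 0.895% rose and 2.89% did either (limma). Their median was -0.27, which turned to 0.04 with median-of-ratios scaling. Ndufb4, an accessory subunit of the distal membrane arm, had 38.3, 21.6 and 40.7 TPM in Lyz2cre and 12.6 in CD11ccre, against 56.1, 68.5 and 54.4 in WT. The CD11ccre value was the lowest of the 7, and the call was for CD11ccre against WT (log2 difference -2.15, SE 0.35, adjusted p = 0.0294). Its intronless copy Gm3244 on chromosome 15 (chr15:73809507-73809896, minus strand, mm10) is contained in an Ndufb4 transcript over all of its 390 bases and held 74.1% to 90.9% of the sum. Its first 75 bases, the length of a read, are shown because such a read fits both genes (chr15:73809822-73809896, GENCODE M21).
Gm3244: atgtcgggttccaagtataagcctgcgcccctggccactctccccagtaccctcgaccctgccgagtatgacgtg

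Summed with Gm3244, Ndufb4 was 190.3, 185 and 184 in Lyz2cre and 138 in CD11ccre, against 221, 264 and 264 in WT, and the CD11ccre difference shrank to -0.85 (SE 0.15, adjusted p = 0.0375). Atp5g2 was the other call in CD11ccre, with a log2 difference of -1.73 (SE 0.34, adjusted p = 0.0468) as deposited and -0.87 (SE 0.14, adjusted p = 0.0289) summed with Gm10175. Both calls ended when any 1 of the WT replicates or Lyz2cre replicate 1 was left out, and with median-of-ratios scaling. The Ndufb4 call held in 8 of 16 alternatives, and the Atp5g2 call in 4 of 16 and in none that left out a library. Between CD11ccre and Lyz2cre 0 of 100 members were called by limma, where 0.114% of all tested genes were (0.0702% lower and 0.0439% higher), and 3 nuclear members had an unadjusted p under 0.05, Ndufb4, Atp5g2 and Ndufaf4, where 6.1% of all tested genes did. A missed threshold with 1 library does not show that the Cre lines were alike.

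Over 7 lists of genes that serve the mitochondrial genome or the complexes from outside the named set, 7 of 157 tested genes were called lower in Lyz2cre (4.46%), near the 4.6% of all tested genes. Of 21 tested genes of mitochondrial DNA transcription and maintenance 1 fell in Lyz2cre, Mterf3, a repressor of mitochondrial transcription in mice. It had 22.0, 30.99 and 21.6 TPM in Lyz2cre and 34.9 in CD11ccre, against 40.8, 57.1 and 43.2 in WT (log2 difference -0.90, adjusted p = 0.0409). The mitochondrial RNA polymerase Polrmt had 13.8, 7.07 and 6.31 TPM in Lyz2cre and 9.47 in CD11ccre, against 15.5, 39.6 and 18.2 in WT, and the packaging factor Tfam had 36.4, 24.9 and 29.1 TPM in Lyz2cre and 24.2 in CD11ccre, against 43.1, 35.4 and 38.1 in WT. Neither passed (adjusted p = 0.103 and 0.235), and both were picked after their values were seen. Of 23 genes of mitochondrial RNA processing and turnover 1 fell, the mitochondrial oligoribonuclease Rexo2, with 161, 155 and 149 TPM in Lyz2cre and 174 in CD11ccre, against 256, 228 and 228 in WT (log2 difference -0.61, adjusted p = 0.0169).

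Of 11 regulators of respiratory genes 1 fell, the PGC-1-related coactivator Pprc1, with 10.7, 11.1 and 8.43 TPM in Lyz2cre and 6.60 in CD11ccre, against 15.6, 22.7 and 22.0 in WT (log2 difference -0.92, adjusted p = 0.0405). It was also called lower in CD11ccre (-1.45, adjusted p = 0.0465), a call that held in 4 of 16 alternatives and in none that left out a library. Of 45 assembly factors outside the named set 1 fell, Cox20, which assists the maturation of the mt-Co2 protein (log2 difference -0.88, adjusted p = 0.0382). Among 19 proteins of the outer membrane and other measures of mitochondrial mass 3 fell, the import receptors Tomm22 (-0.52, adjusted p = 0.0239) and Tomm20 (-0.65, adjusted p = 0.0334) and the porin Vdac3 (-0.45, adjusted p = 0.0436). None of 21 electron and inner membrane carriers and none of 17 genes of the TCA cycle were called in Lyz2cre, with 7 in each list at an unadjusted p under 0.05 (2 carriers and 1 TCA gene of these higher), where 24.6% of all tested genes passed. In these 7 lists 0 genes were called higher in Lyz2cre, and list medians ran from -0.29 to -0.13 against -0.16 over all genes. In CD11ccre Tomm20 was also called lower (-0.98, adjusted p = 0.0424), in 6 of 16 alternatives and in none that left out a library or used median-of-ratios scaling. With median-of-ratios scaling the Lyz2cre calls of Mterf3, Pprc1, Cox20, Tomm22, Tomm20 and Vdac3 ended, and with scaling without the 4 abundant genes that of Rexo2 ended as well. The calls of Mterf3, Pprc1, Cox20, Tomm20 and Vdac3 also ended when any 1 Lyz2cre or WT library was left out, and those of Tomm22 and Rexo2 when any 1 was left out except WT replicate 3.

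The mitochondrial ribosomal RNAs, which are not protein-coding and are mostly removed by poly(A) selection, did not pass the threshold. mt-Rnr2 had 1081, 829.8 and 955 TPM in Lyz2cre and 1137 in CD11ccre, against 1419, 1833 and 2909 in WT (log2 difference -1.05, SE 0.25, adjusted p = 0.0521). mt-Rnr1 had 369, 259 and 285 TPM in Lyz2cre and 391.57 in CD11ccre, against 549, 739 and 2693 in WT (log2 difference -1.77, SE 0.54, adjusted p = 0.0963). In both every Lyz2cre library lay below every WT library, and WT replicate 3 stood far above the other WT libraries for mt-Rnr1.

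The nuclear members have separate promoters, and 78 RefSeq promoters (GRCm38.p6, 250 bases before to 50 after the start) were matched to 73 of them. Letters bound by known regulators of respiratory genes were searched on both strands as a description. The ETS core CCGGAAG was in 17 of the 78 (21.8%), against 8.86% of all 32851 promoters, and the YY1 letters AAGATGGC, which can overlap the end of the ETS core, were in 9 (11.5%), against 2.75%. The NRF1 palindrome was in 7 (8.97%), against 0.971%, and the ERR letters TCAAGGTCA in 2 (2.56%), against 0.423%. Of the genes that moved, the Uqcrh promoter held 1 match, an ETS core on the opposite strand whose first base lies 10 bases before the start. The Ndufb10 and Ndufb2 promoters held 0 of these exact letters. The Uqcrh promoter (chr4:116075021-116075320, minus strand, GRCm38.p6) is shown with that match in capitals, since Uqcrh had the smallest p of any nuclear member on the deposited scale, a call that ended with median-of-ratios scaling.
Uqcrh: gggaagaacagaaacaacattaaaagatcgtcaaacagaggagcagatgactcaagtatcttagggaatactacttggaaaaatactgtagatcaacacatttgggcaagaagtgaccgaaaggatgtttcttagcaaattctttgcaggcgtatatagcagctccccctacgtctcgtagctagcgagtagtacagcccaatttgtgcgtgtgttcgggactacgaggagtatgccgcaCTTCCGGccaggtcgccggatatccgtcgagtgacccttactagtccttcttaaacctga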

How the data were processed

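Reads were trimmed, aligned to mm10 and quantified with cutadapt 2.3, STAR 2.7.0d and RSEM 1.3.1, per the submitters' processing notes, and the authors deposited TPM per gene for 7 libraries in 1 table. Libraries were poly(A)-selected, directional and read single-ended over 75 bases, per the labels' protocols. The annotation release, the strand setting and the treatment of reads that fit several loci are not given in these sources. Depth is unknown, since TPM keeps no read counts.

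Differences were computed on log2(TPM + 1), which understates changes of low genes, with limma 3.58.1 in R 4.3.3 (empirical Bayes with a mean-variance trend). The 3 groups were fitted together over all 11397 genes averaging 1 TPM or more, with 4 residual degrees of freedom, so the lone CD11ccre library was assumed to vary like the others. Benjamini-Hochberg adjustment covered all tested genes, and called means an adjusted p under 0.05. A second fit rescaled each library to an equal sum of nuclear members. Near copies were found with BLAST 2.17.0 among GENCODE M21 transcripts (identity of at least 97%, aligned over at least 50% of the shorter transcript, copy mean of at least 1 TPM and length of at least 150 bases), which gave 20 copies of 17 members. Exact permutation tests used scipy 1.17.1.

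Members and gene lists were chosen with earlier results of these data known. Genes named were all mt- genes, the highest nuclear member of each complex, called members and list genes by smallest p, paralogue groups and the deleted genes. Ndufb2, Ndufaf4, Cyc1, Uqcrfs1, Polrmt, Tfam, the marker genes and the mitochondrial ribosomal RNAs fall outside that rule and were chosen after their values were seen. A called gene that counts include is not reported here by name. Alternatives were other pseudocounts, filters and scalings, limma without the trend, a replicate block, leaving out each library, and summing near copies.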

Additional observations from a re-analysis of the deposited data

How the results depend on the processing

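Of the mt- genes, 10 were called lower in Lyz2cre; the count was 0 with no filter on low values, 6 with limma without the trend, and 0 to 10 when 1 library was left out. Of the nuclear members 3 were called lower in Lyz2cre, with 1 under no filter, 5 under a mean TPM of at least 5, 0 under median-of-ratios scaling, 20 when scaled to nuclear protein-coding genes, 0 when scaled without Ftl1, Fth1, Chil3 and Lyz2, 0 without the trend, and 0 to 3 with 1 library left out. The count called higher was 0, and 1 under median-of-ratios scaling, 1 under scaling without those 4 genes and 1 under a mean TPM of at least 5. In CD11ccre 0 mt- genes were called lower, with 3 under a mean TPM of at least 5, 4 when scaled to nuclear protein-coding genes, 1 when summed with near copies and 0 to 3 with 1 library left out. Nuclear members called lower in CD11ccre numbered 2, with 1 under a pseudocount of 5, 0 under no filter, 0 under median-of-ratios scaling, 4 when scaled to nuclear protein-coding genes, 1 when scaled without the 4 abundant genes, 0 without the trend and 0 to 1 with 1 library left out, and 1 was called higher under no filter. Relative to the nuclear members, 2 mt- genes were called lower in Lyz2cre, with 0 under no filter, 7 under a mean TPM of at least 5, 0 without the trend, 5 when summed with near copies and 0 to 3 with 1 library left out. On that scale 1 nuclear member was called higher in Lyz2cre, with 0 under no filter and 0 to 1 with 1 library left out. In CD11ccre on that scale 0 nuclear members were called lower, with 1 under a mean TPM of at least 5 and 0 to 1 with 1 library left out, and 0 were called higher, with 1 under no filter. The ratio of mt- to nuclear sums in Lyz2cre was 0.402 to 0.630 of that in WT over all its alternatives. The cause of these changes was not tested. Summing near copies was chosen after the data were seen.

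Replicate numbers did not pair the samples: deviations of same-numbered Lyz2cre and WT libraries correlated at -0.0149, 0.0431 and 0.0656, and not every library correlated best with its own number. With a replicate block 6 mt- and 1 nuclear genes were called lower in Lyz2cre and 0 nuclear genes in CD11ccre, and relative to the nuclear members 1 mt- gene lower and 0 nuclear genes higher in Lyz2cre.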
